A study of Gallus gallus with 2 samples.

Results

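Melanocytes arise from the neural crest and depend on a small set of transcription factors, on the receptor tyrosine kinase KIT and on endothelin receptors. In this system PAX3 and SOX10 activate MITF, the transcription factor that switches on the pigment genes, while KITLG is the ligand of KIT. Endothelins are made as inactive precursors and cut to active peptides by endothelin converting enzymes such as ECE1, and birds carry a receptor, EDNRB2, that is known from quail and chicken for its role in the migration of melanoblasts, in addition to EDNRB and EDNRA. The genes described here are the 10 genes MITF, SOX10, PAX3, KIT, KITLG, EDNRB2, EDNRB, EDNRA, EDN1 and ECE1. They were taken by symbol, and the rule used no level or fold change, but they were chosen with earlier results of these data known. Of the 15073 genes listed with both libraries, 10067 carried a symbol. A row with the same symbol was found for 9 of the 10 genes. ECE1 was not listed under that symbol and was taken from the row named ECE-1, which the RefSeq gene table of the chicken assembly GRCg7b gives as a synonym of ECE1. All 10 genes had at least 10 fragments over both libraries, the level from which genes were compared, as had 12948 of the listed genes. EDN1 lay exactly at that limit.

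The libraries were made from breast muscle of 12-week-old Xichuan black-bone chickens, a breed with dark meat, skin and bones. Birds of the control group ate a basal diet, and those of test group IV ate the same diet with 0.8% added tyrosine, the amino acid from which melanin is made. Per group, the RNA of 3 birds went into 1 pool and 1 library, so that no value given here has a replicate check and variation between birds cannot be separated from the effect of the diet. Counted fragments summed to 13135159 in the control library and to 14318101 in test group IV. FPKM is the fragment count divided by transcript length and depth, and the ratio of the FPKM values, test group IV over the control group, is given on the log2 scale. Each ratio is followed by an exact 95% Clopper-Pearson interval from the fragment counts of the gene. PCR duplicates were not removed by molecular identifiers, and these intervals cover counting error only. The 15073 genes all had 1 or more control fragments, whereas 796 of them had none in test group IV. Genes without a control fragment were not analysed here. A gene not found by symbol may therefore lack only a control fragment, or be listed without its symbol. Its level in test group IV is not known here. In bulk tissue, fewer cells of a type and less RNA per cell cannot be told apart.

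The tissue was checked first, because the title given to the series speaks of skin. Of 12 skeletal muscle fibre markers, 5 were found by symbol. TNNT3, a fast fibre troponin, had an FPKM of 9943 in the control library and 9424 in test group IV. All 5 lay within 2-fold, 3 with an interval above 0 and 2 with an interval below 0. The log2 fold changes were 0.22 for TNNC2, 0.14 for MYOZ1 and 0.11 for TNNI2. They were -0.08 for TNNT3 and -0.40 for ENO3. The keratins KRT5, KRT14, KRT15, KRT6A and KRT75 were not found by symbol and were not analysed here. The 6 keratinocyte markers that were found summed to an FPKM of 16.6 in the control library and 15.5 in test group IV. Of these, PKP1, a desmosome protein, was at least 2-fold lower with 180 and 72 fragments and a log2 fold change of -1.45 (-1.86 to -1.04), and DSG2, a desmosomal cadherin, had 3 and 12 fragments and an interval from -0.01 to 4.34. PPL went the other way to PKP1, with 466 and 895 fragments and a log2 fold change of 0.82 (0.65 to 0.98). Its FPKM was 4.57 in the control library and 8.06 in test group IV. TP63 had a log2 fold change of -0.22 (-0.48 to 0.03). The sums therefore hold differences in opposite directions. The muscle fibre markers ACTA1, CKM, PYGM, TTN, MYLPF, MYH1A and ATP2A1 and the keratinocyte marker EVPL were not found by symbol.

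The study designed qRT-PCR primers for a pair of these genes, MITF and EDNRB2. They are shown because they are the oligos with which these transcripts were measured a second time, by a method whose values were not analysed here. The RefSeq transcripts for which they were designed belong to MITF and EDNRB2. The sequences are given in lower case from the 5′ end, and no base is marked.
MITF forward primer: agctcacagagtcagaagcg
MITF reverse primer: tattccagcgcatatccggg
EDNRB2 forward primer: tgagcaagagaaatggcatga
EDNRB2 reverse primer: cctcccgacgccgttt
The MITF primers are both 20 bases long with 55% G or C. The EDNRB2 primers are 21 and 16 bases long, with 42.9% and 68.8% G or C.

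Among the 10 genes, EDNRB2 showed the largest difference between the libraries. It was 15.4-fold higher in test group IV, while EDNRB, its paralog, was 1.71-fold lower and EDNRA was close to its level in the control library. MITF was 1.56-fold higher. SOX10, KIT and KITLG differed by less than their counting error. By a 2-fold threshold, EDNRB2 and PAX3 were higher and EDN1 was lower, and the other 7 genes lay within 2-fold. This is 3 of 10 genes, beside 8.91% of all 12948 genes compared. PAX3 and EDN1 rest on 12 and 10 fragments. Among the 1080 genes with 10 to 20 fragments, 36.8% passed the same threshold, so that their place beyond 2-fold is common at such counts. The median log2 fold change was 0.32 over the 10 genes and 0.09 over all genes compared. Nothing particular to the 10 genes as a group is read from these numbers.

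**Figure D1:**
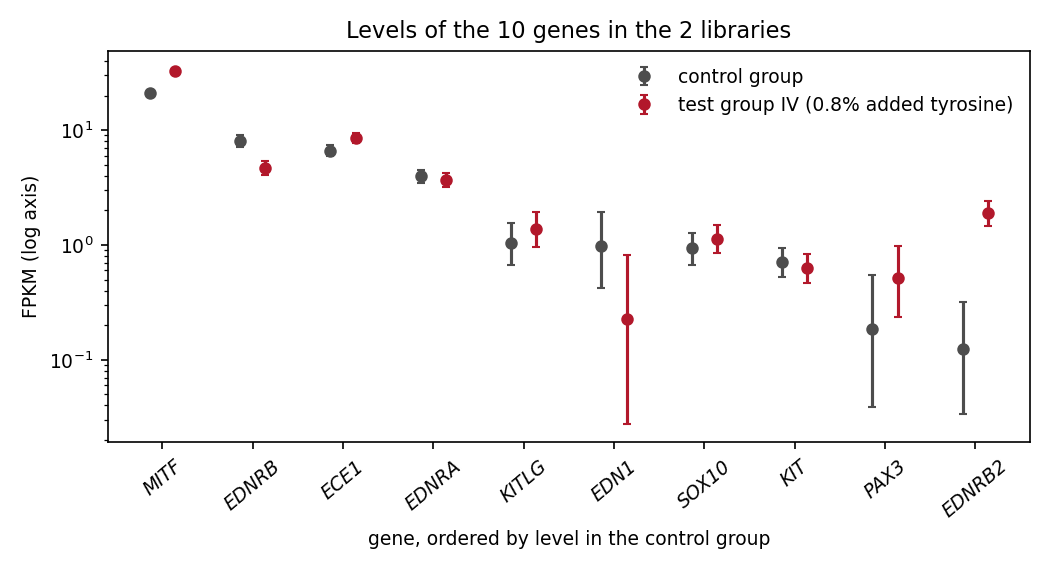
FPKM (log axis) of the 10 genes in the control library (grey) and test group IV (red), ordered by their level in the control library. Points are the deposited values of 1 library each and bars are exact 95% Poisson intervals of the fragment counts. EDNRB2 moved from the lowest of the 10 levels (0.124) to the fifth (1.90), while MITF had the highest level in both libraries.

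A counting interval that leaves out no change was obtained for 4 of the 10 genes. It lay above 0 for EDNRB2, MITF and ECE1 and below 0 for EDNRB. Over all genes compared, 39.6% had such an interval, 25.6% above and 14% below no change. In numbers these were 3316 and 1814 genes, and scaling by TMM made them 2317 and 2508, while the same 4 of the 10 genes kept such an interval. The share among the 10 genes is near this background. An interval that leaves out 0 therefore says that 2 libraries differ by more than counting error, which is frequent here for genes with many fragments. It applied to 60.9% of the 4195 genes whose mean FPKM was 10 or more, the class that holds MITF.

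**Figure D2:**
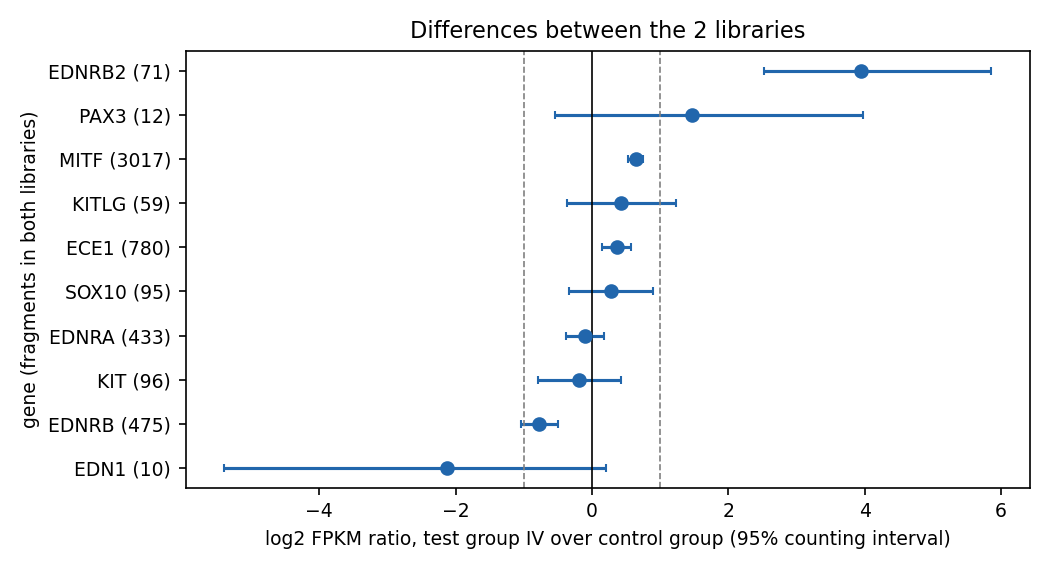
Log2 FPKM ratio of test group IV over the control group for each gene, with the 95% counting interval and, in parentheses, the fragments in both libraries together. Dashed lines mark a 2-fold difference. Only the interval of EDNRB2 (2.52 to 5.86) lies beyond them, and those of 6 genes include 0.

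MITF, the master regulator of the melanocyte lineage, which is also made in other cell types from several promoters, lies on chromosome 12 of Galgal5 (chr12:15509714-15595891). It was counted 1117 times in the control library (FPKM 21.1) and 1900 in test group IV (FPKM 32.9). The level in test group IV was 1.56-fold that of the control group, with an interval from 1.45 to 1.68. The log2 fold change was 0.64 (0.53 to 0.75), and its rank from the highest was 1376 among the 12948 genes compared. In both libraries MITF was the most highly expressed of the 10 genes. It exceeded 85.6% of the listed genes in FPKM, itself included, in the control library and 90.3% in test group IV. Its FPKM was 22.5 times that of SOX10 in the control library and 29.1 times in test group IV. The counts are per gene, so that the promoters of MITF were not separated.

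Among the relatives of MITF, TFEB, a regulator of lysosome genes, had an FPKM of 24.1 and 23.5, respectively, with a log2 fold change of -0.04 (-0.15 to 0.08). MITF was below TFEB in the control library and above it in test group IV, with FPKM ratios of 0.874 and 1.40. TFEC was seen with 1 control fragment and none in test group IV, and no fold change is given. TFE3 was not found by symbol. Of the 15 genes in the list of the MITF family and its upstream factors, 6 were found and 5 had at least 10 fragments. None of the 5 passed 2-fold in either direction, beside 8.91% of all genes compared. TCF7L2, a transcription factor of the Wnt pathway, had 142 and 222 fragments and a log2 fold change of 0.52 (0.21 to 0.83). CTNNB1, which encodes the Wnt transducer β-catenin, had a log2 fold change of 0.16 (0.03 to 0.30). MC1R, the receptor for melanocyte stimulating hormone, and its ligand genes POMC and ASIP were not found by symbol, nor were CREB1, LEF1, WNT3A, PIAS3 and HINT1.

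SOX10, which marks melanocytes and Schwann cells and activates MITF and DCT, was counted with 41 fragments in the control library (FPKM 0.938) and 54 in test group IV (FPKM 1.13). It lies at chr1:51089596-51098755. The log2 fold change was 0.27, and its interval from -0.34 to 0.90 included 0. A difference in SOX10 was therefore not detectable at this depth, and the interval reaches neither a 2-fold rise nor a 2-fold fall. The fold change of SOX10 was 0.37 lower than that of MITF on the log2 scale, and the interval of this difference, from -0.99 to 0.26, included 0. For such differences between genes the scaling of the libraries cancels, and the interval is the exact conditional interval of an odds ratio of fragment counts.

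PAX3, which acts upstream of MITF in melanoblasts and is also used in muscle precursors, had 3 fragments in the control library (FPKM 0.187) and 9 in test group IV (FPKM 0.513). The gene lies at chr9:7888137-7948484. The ratio was 2.75 with an interval from 0.687 to 15.8, so that neither direction can be read from it. PAX7, the related factor that marks satellite cells and is named Pax-7 in the files, had 65 and 137 fragments and a log2 fold change of 0.95 (0.51 to 1.40). The 7 satellite cell markers summed to an FPKM of 90.5 in the control library and 126 in test group IV. MYOD1, a myogenic transcription factor, made up most of the sum with an FPKM of 54.4 and 89.5. In this list 3 intervals lay above 0, those of PAX7, MYOD1 with 0.72 (0.63 to 0.81) and MET with 0.53 (0.10 to 0.97). CDH15, a muscle cadherin, had the 1 interval below 0, with a log2 fold change of -0.28 (-0.47 to -0.09). Of all genes compared, 25.6% had an interval above 0 and 14% below. Where the mean FPKM was 10 or more, the class that holds MYOD1, 41.8% had an interval above 0. SDC4, a syndecan, had -0.21 (-0.53 to 0.11), and MYF5 had 0.16 (-0.22 to 0.55). HEYL, a target of Notch signalling, was the only one of them beyond 2-fold, with 8 and 18 fragments and an interval from -0.23 to 2.46 that included 0. Their part in the value of PAX3 was not tested.

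Of the 16 neural crest regulators that accompany these factors, 9 were found and 8 had at least 10 fragments. None passed 2-fold, beside 8.91% of all genes compared. Their median log2 fold change was 0.28, beside 0.09 over all genes. The median rests partly on genes of other lists. PAX7, given above as a satellite cell marker, is among them and had the only interval above 0. ERBB3 and NGFR are also in the list of Schwann cell markers. The only interval below 0 was that of SOX6. SOX6, which is also a regulator of muscle fibre type, went from 276 to 213 fragments, which is -0.50 (-0.76 to -0.24) on the log2 scale. SOX9 had only 8 and 16 fragments, and its interval from -0.43 to 2.31 included 0. FOXD3, SNAI2, TFAP2A, TFAP2B, ZIC1, TWIST1 and MSX2 were not found by symbol, and MSX1 had 2 fragments in the control library and none in test group IV.

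KIT, the receptor that melanoblasts need for survival and migration, was counted with 49 fragments in the control library (FPKM 0.714) and 47 in test group IV (FPKM 0.628). It lies at chr4:65682458-65734704. Its log2 fold change was -0.18 (-0.79 to 0.42). KITLG, the gene of its ligand, at chr1:42981399-43032887, had 24 fragments (FPKM 1.04) and 35 fragments (FPKM 1.39), respectively, with a log2 fold change of 0.42 (-0.37 to 1.23). Neither gene differed beyond counting error. The interval of KIT leaves out a 2-fold difference in both directions, whereas that of KITLG reaches past a 2-fold rise. KITLG exceeded KIT in FPKM 1.45 times in the control library and 2.21 times in test group IV. The difference in log2 fold change, KIT minus KITLG, was -0.60 with an interval from -1.63 to 0.41.

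The signalling genes downstream of KIT lay within 2-fold. Of 20 listed genes 17 were found, GAB2, PIK3R1 and SRC not among them, and none of the 17 passed the threshold. Of all genes compared, 8.91% passed it. The share was 6.16% at a mean FPKM of 1 to 10 and 2.6% at 10 or more, the classes of these genes. Nothing particular to this list is read from that. Their log2 fold changes ran from -0.35 (SPRED2) to 0.47 (PTPN6), with a median of 0.00. PTPN6, a phosphatase that restrains KIT and is abundant in blood cells, had 190 and 286 fragments, and its interval was 0.20 to 0.74. The leukocyte markers, which include PTPRC and SPI1, summed to an FPKM of 190 in the control library and 247 in test group IV, with 8 of 10 found (CD3D and CD4 not among them) and none at 0. CD74, a chaperone of antigen presentation, made up most of this sum with an FPKM of 154 and 207. Of the 8 genes, 5 had ratios above 1 and 3 below. The interval lay above 0 for 4 of them and below 0 for none, beside 25.6% and 14% of all genes compared. These 4 were SPI1, PTPRC with 0.32 (0.11 to 0.52), CD74 with 0.42 (0.37 to 0.48) and LCP1 with 0.22 (0.03 to 0.40). The highest log2 fold change was that of SPI1, a transcription factor of myeloid cells, with 0.73 (0.43 to 1.03). CSF1R, a receptor of macrophages, had -0.02 (-0.16 to 0.13), and the T cell genes CD3E and CD8A had -0.10 (-0.45 to 0.25) and -0.36 (-1.22 to 0.50). The part of these cells in the values of PTPN6 and of MITF was not tested. GRB2, the adaptor that links KIT to RAS, had a log2 fold change of 0.24 (0.09 to 0.40), and CBL, a ubiquitin ligase that removes KIT, had -0.27 (-0.51 to -0.02). Mast cells also carry KIT. Of 6 mast cell markers, 4 were found, CPA3 and MS4A2 not among them, and their summed FPKM was 4.26 and 4.22. HPGDS, a prostaglandin D synthase, was the only one beyond 2-fold, with 11 and 28 fragments and a log2 fold change of 1.22 (0.17 to 2.38). Of all genes compared, 4.82% were at least 2-fold higher. SRGN had -0.63 (-1.83 to 0.52), HDC 0.01 (-1.36 to 1.41) and GATA2 -0.004 (-0.61 to 0.61).

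**Figure D3:**
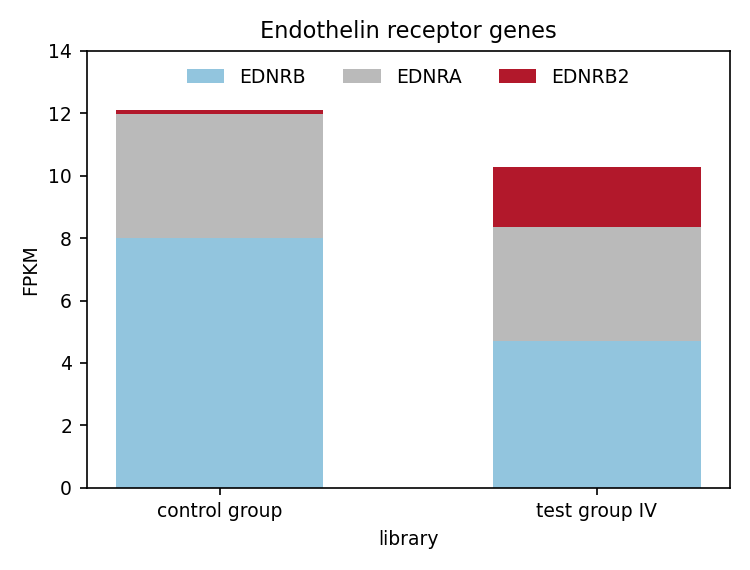
FPKM of the 3 endothelin receptor genes stacked for each library. The sum was 12.1 in the control library and 10.3 in test group IV. EDNRB2 made up 1.02% of it in the control library and 18.5% in test group IV, and EDNRB 66.3% and 45.7%, respectively.

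The endothelin receptors showed different values from one another. EDNRB2, at chr4:11210631-11219813, had 4 fragments in the control library (FPKM 0.124, Poisson interval 0.0337 to 0.317) and 67 in test group IV (FPKM 1.90, 1.47 to 2.41). These intervals do not overlap, and neither do those of MITF, EDNRB and ECE1. The share of all genes for which this holds was not computed. A counting interval of the ratio that leaves out no change was found for 39.6% of them. The log2 fold change was 3.94 (2.52 to 5.86), so that counting error alone allows between 5.73-fold and 58.0-fold. It was the ninth highest of all 12948 genes compared, of which 4.82% were at least 2-fold higher in test group IV. Among the 1359 genes with 50 to 100 fragments, as many as EDNRB2 had, 6.25% were. With 4 control fragments, EDNRB2 reached the limit of 10 fragments, and this class, only through test group IV. Its rank and its place beyond 2-fold therefore partly reflect this limit. Genes without a control fragment are not among the genes compared, so that genes seen only in test group IV enter neither the rank nor these shares. The level in the control library rests on a few fragments, and the log2 fold change was 1.37 once 1 was added to every FPKM.

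EDNRB, which is best known in vascular endothelium and the enteric neural crest, was counted with 290 fragments in the control library (FPKM 8.01) and 185 in test group IV (FPKM 4.69). It lies at chr1:153918344-153932319. Its log2 fold change of -0.77 (-1.05 to -0.50) stood in the opposite direction to that of EDNRB2. EDNRA, the receptor of vascular smooth muscle, at chr4:32158004-32187519, had 215 fragments (FPKM 3.95) and 218 fragments (FPKM 3.68), with a log2 fold change of -0.10 (-0.38 to 0.17). On the log2 scale the fold change of EDNRB2 exceeded that of EDNRB by 4.71 (3.25 to 6.65) and that of EDNRA by 4.05 (2.58 to 5.98). EDNRB in turn lay below EDNRA by a difference of -0.67 (-1.06 to -0.28). These differences do not depend on how the libraries are scaled to each other. Reads that match both EDNRB and EDNRB2 were not separated here.

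EDNRB therefore exceeded EDNRB2 in FPKM 64.8 times in the control library and 2.47 times in test group IV. As a share of the fragments of the 3 receptor genes, EDNRB2 took 0.786% in the control library (exact Clopper-Pearson interval 0.215% to 2.00%) and 14.3% in test group IV (11.2% to 17.7%). EDNRA took 42.2% (37.9% to 46.7%) and 46.4% (41.8% to 51.0%), respectively.

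Markers of the vessel wall were set beside EDNRB and EDNRA. Of 12 endothelial markers 10 were found, PECAM1 and EMCN not among them, with a median log2 fold change of 0.00 and a summed FPKM of 67.1 in the control library and 66.3 in test group IV. None passed 2-fold, beside 8.91% of all genes compared, and none was at 0. Of the 10, 2 had an interval below 0, CLDN5, a tight junction protein, with -0.61 (-1.03 to -0.19) and TEK, the angiopoietin receptor, with -0.26 (-0.50 to -0.02). FLT1, a receptor for vascular endothelial growth factor, was the 1 gene with an interval above 0, at 0.37 (0.07 to 0.68). Over all genes compared, 14% had an interval below 0 and 25.6% above. EDNRB lay below CDH5, the cadherin of endothelial cells, by a difference of -0.73 (-1.03 to -0.42), and its difference from the other endothelial markers was not computed. CDH5, itself at -0.05 (-0.18 to 0.08), was chosen for this after the values were seen. The intervals of CLDN5 and of ERG (-0.79 to 0.16) overlap that of EDNRB (-1.05 to -0.50), and those of the other markers found do not. Of 11 smooth muscle and pericyte markers 9 were found, all but ACTA2 and NOTCH3, and their summed FPKM was 210 and 172. Of these, 7 had an interval below 0 and 1, ABCC9, above, beside 14% and 25.6% of all genes compared. Their median log2 fold change was -0.37. KCNJ8, a potassium channel subunit of pericytes, passed 2-fold with 249 and 126 fragments and a log2 fold change of -1.11 (-1.43 to -0.79). Of 9 fibroblast markers 8 were found, all but COL1A1. They summed to an FPKM of 356 and 400, and of the 7 with at least 10 fragments none passed 2-fold. Of these 7, 4 had an interval above 0, COL1A2, COL3A1, DCN and PDGFRA. The other 3, LUM, FAP and FBN1, had an interval below 0. Of all genes compared, 39.6% had an interval that left out 0. Where the mean FPKM was 10 or more, the class of these markers except FAP, 60.9% had one. The part of these cells in the values of EDNRB and EDNRA was not tested.

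The ligand and enzyme genes had lower counts on the ligand side. EDN1, at chr2:62884522-62888112, encodes endothelin 1 and had 8 fragments in the control library (FPKM 0.986) and 2 in test group IV (FPKM 0.226). Its log2 fold change was -2.12, but the interval from -5.40 to 0.20 included 0. A Wilson interval in its place left out 0, with an upper limit of -0.0679, so that this depends on the kind of interval. The gene had the fewest fragments of the 10. EDN2, which encodes a second ligand of EDNRA and EDNRB and is not one of the 10 genes, had 75 fragments (FPKM 2.12) and 38 fragments (FPKM 0.985). It was at least 2-fold lower, with a log2 fold change of -1.11 (-1.71 to -0.52), as were 4.09% of all genes compared. The summed FPKM of EDN1 and EDN2 was 3.11 in the control library and 1.21 in test group IV. EDN3, the ligand known for the melanoblast, was not found by symbol and was not analysed here. Whether it had fragments in test group IV is not known.

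ECE1, the enzyme that cuts the endothelin precursors, at chr21:6624802-6634043, had 325 fragments in the control library (FPKM 6.65) and 455 in test group IV (FPKM 8.54). The log2 fold change was 0.36 (0.15 to 0.57). ECE1 exceeded EDN1 in FPKM 6.75 times in the control library and 37.8 times in test group IV, and the difference in log2 fold change, EDN1 minus ECE1, was -2.49 with an interval from -5.76 to -0.14. ECE2, a related enzyme, had 17 and 12 fragments, and its interval from -1.83 to 0.52 included 0. ECE1 made up 94.3% of the FPKM of both enzymes in the control library and 97.0% in test group IV.

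Of the 16 other genes of the endothelin pathway, 10 were found, and ECEL1, GNA12, PLCB3, ARRB1 and ARRB2 were, like EDN3, not among them. PLCB2, a phospholipase C, was the only one at least 2-fold higher, with a log2 fold change of 1.01 (0.61 to 1.42), and EDN2 the only one at least 2-fold lower. PLCB2 lay within 2-fold when the libraries were scaled by TMM. PLCB1, another phospholipase C, went the other way, with 709 and 556 fragments and a log2 fold change of -0.48 (-0.64 to -0.31). Its FPKM was 13.1 in the control library and 9.40 in test group IV. PLCB4 had a log2 fold change of 0.12 (-0.26 to 0.51). GNA13, which encodes a G protein α subunit, had 398 and 222 fragments and lay just inside the threshold with -0.97 (-1.21 to -0.73). Scaling by TMM put it past the threshold at -1.06. GNAQ and GNA11, the G proteins through which endothelin receptors reach phospholipase C, had log2 fold changes of -0.14 (-0.42 to 0.13) and -0.12 (-0.32 to 0.08).

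**Figure D4:**
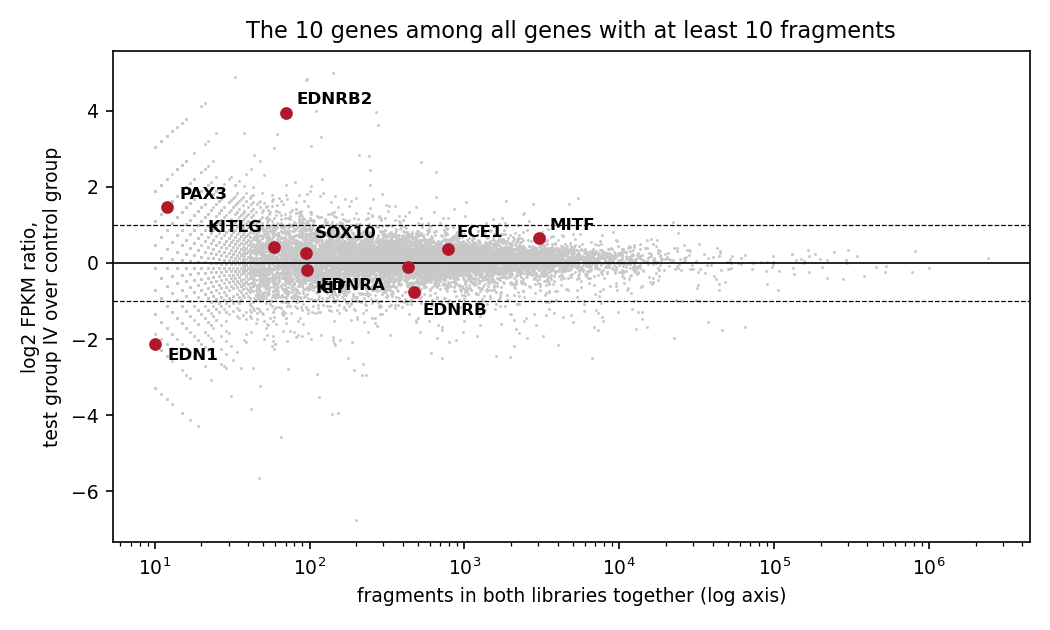
Log2 FPKM ratio against the number of fragments in both libraries (log axis) for the 12948 genes with at least 10 fragments (grey) and the 10 genes (red). Dashed lines mark a 2-fold difference. EDNRB2 has the ninth highest ratio of all these genes, but it reached 10 fragments only through test group IV. PAX3 and EDN1 lie at the left edge, where 36.8% of the genes with 10 to 20 fragments differ at least 2-fold. Genes without a control fragment are not shown.

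In order of level, the control group had MITF first, then EDNRB and ECE1, whose Poisson intervals overlap (7.12 to 8.99 and 5.95 to 7.41), and then EDNRA. KITLG, EDN1, SOX10 and KIT followed between 0.714 and 1.04 with overlapping intervals. PAX3 and EDNRB2 were lowest, and their intervals overlapped as well. In test group IV the order began with MITF, ECE1, EDNRB and EDNRA, and EDNRB2 came next, ahead of KITLG, SOX10, KIT, PAX3 and EDN1. The intervals of EDNRB2 and KITLG (0.966 to 1.93) overlapped, so that their order is not fixed by these counts. EDN1 went from the sixth place to the last. None of the 10 genes overlaps the span of another listed gene.

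The melanocyte markers were compared with the regulators. Of 15 markers 8 were found and 7 had at least 10 fragments. TYR, TYRP1, MLANA, SLC45A2, SLC24A5, OCA2 and GPR143 were not found by symbol. This does not show that they were silent in test group IV, since genes without a control fragment are not listed. The summed FPKM of the 8 genes was 5.32 in the control library and 14.7 in test group IV, and none was at 0. At least 2-fold higher were 5 of the 7, namely DCT, GPNMB, TRPM1, PMEL and MLPH, and none was lower. Of all genes compared, 4.82% were higher and 4.09% lower by this threshold. DCT, GPNMB, TRPM1 and MLPH had 4, 3, 1 and 5 control fragments and reached 10 fragments only through test group IV. RAB38 had 3 fragments in each library and was left out by the same limit. The count of 5 therefore partly reflects this limit. RAB27A and MYO5A, which carry vesicles in many cell types, lay within 2-fold with log2 fold changes of 0.19 and -0.35. EDNRB2 differed from DCT by -1.04 (-3.51 to 1.43), from GPNMB by -0.87 (-3.69 to 1.75) and from PMEL by 0.86 (-1.01 to 3.05) in log2 fold change, and each interval included 0. These intervals are wide and do not show that the 4 genes changed alike. In log2 fold change, MITF minus DCT was -4.34 (-6.24 to -2.95) and SOX10 minus DCT was -4.71 (-6.70 to -3.13). KIT minus EDNRB2 was -4.13 (-6.13 to -2.52). These pairs were chosen after the values were seen. DCT had the highest fold change of the marker list and EDNRB2 that of the 10 genes. That these intervals leave out 0 therefore partly reflects the choice. The named pigment genes were chosen with earlier results of these libraries known and are no independent support for EDNRB2. Their part in the value of EDNRB2, which melanocytes carry, was not tested.

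Schwann cells share SOX10 with melanocytes. Of 11 Schwann cell markers 10 were found, all but MBP, 7 of them with at least 10 fragments. None was at 0, and the summed FPKM was 24.0 in the control library and 15.9 in test group IV. PMP22, a myelin protein that other cells make as well, made up most of this sum with an FPKM of 19.4 and 13.5. Of the 7 genes, 2 were at least 2-fold lower and none was higher, beside 4.09% and 4.82% of all genes compared. GAP43, a growth cone protein, had 25 and 4 fragments with a log2 fold change of -2.77 (-4.75 to -1.23), and S100B had 23 and 11 fragments with -1.19 (-2.37 to -0.09). GAP43 reached 10 fragments only through the control library. The intervals of NGFR with 0.61 (-0.99 to 2.36) and ERBB3 with 0.10 (-1.70 to 1.95) included 0. Those of CDH19 with -0.29 (-1.32 to 0.74) and EGR2 with -0.45 (-1.67 to 0.75) did so too. The part of Schwann cells in the value of SOX10 was not tested.

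**Figure D5:**
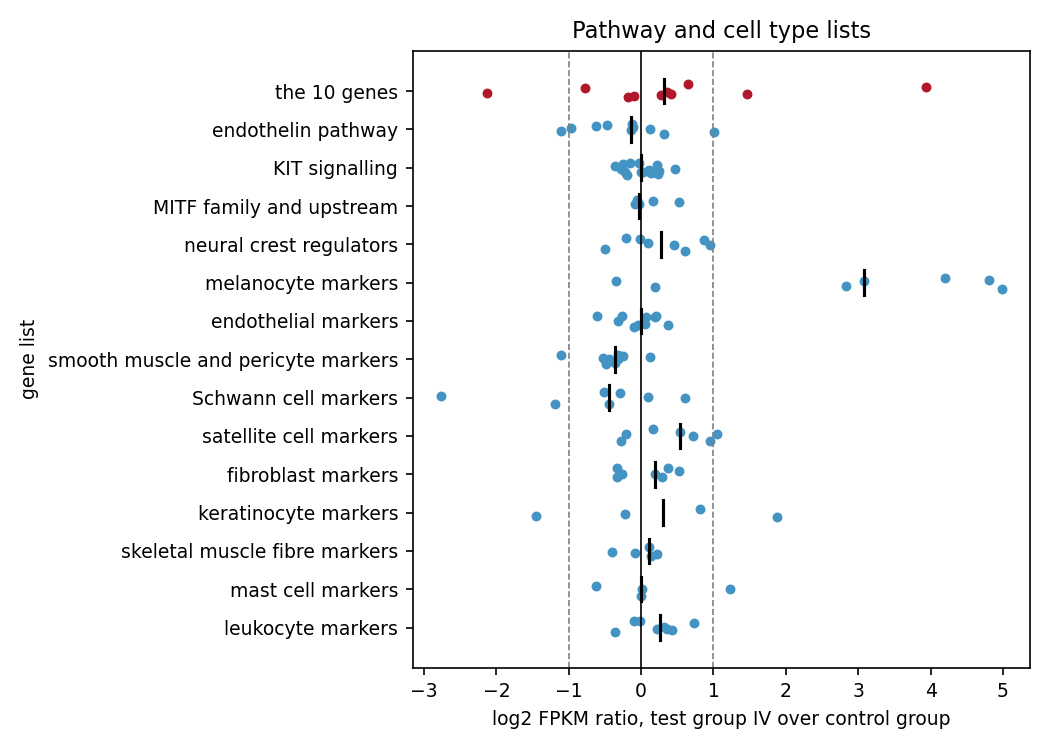
Log2 FPKM ratio of test group IV over the control group for the genes with at least 10 fragments in each list, with the 10 genes in red and the median of each list as a black bar. Dashed lines mark a 2-fold difference. The median was 3.08 for the melanocyte markers, 0.00 for the KIT signalling and endothelial lists and -0.45 for the Schwann cell markers. Of the melanocyte markers shown, DCT, GPNMB, TRPM1 and MLPH reached 10 fragments only through test group IV.

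The genes with the pair of FPKM values nearest to that of EDNRB2 were RSAD2, PMEL and MCM9, by the distance of their log2 FPKM values over the 2 libraries among named genes with at least 50 fragments. RSAD2, an interferon-induced gene, had 10 and 108 fragments at a distance of 0.449. PMEL, which forms the fibrils of the melanosome, had 10 and 92 fragments at a distance of 0.612. MCM9, a gene of DNA repair, had 5 and 57 fragments at a distance of 0.769. With 2 libraries such likeness is that of one pair of values.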

How the data were processed

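Per the paper's methods, the authors removed adaptors and low-quality reads with Seqtk, aligned to Ensembl Galgal5 with TopHat 2.0.9 and obtained gene-level fragment numbers from StringTie 1.3.0. The submitters' processing notes also name HISAT2. Deposited for each library are whole-number fragment counts and, from a Perl script of the authors, FPKM values. TMM normalization is described by the authors, but the deposited counts are whole numbers with different totals and were used as such. The libraries' relative depth was 1.09025. Fold changes are ratios of the FPKM values. With 1 library per group no test was made, and a gene was called by a 2-fold ratio among genes with at least 10 fragments over both libraries. A library at 0 was set to 3 fragments, and no fold change was given where both libraries were at or under 3. The genes and lists were chosen with earlier results of these data known. All 10 genes were named. From the other lists, genes that passed 2-fold or were not found were to be named, up to 4 in each direction. The other list genes named, the classes by fragment number and the differences that involve DCT, PMEL, GPNMB, CDH5, EDNRB with EDNRA, SOX10 with MITF and KIT with EDNRB2 were chosen after the values were seen. Symbols were matched to synonyms in a RefSeq table of GRCg7b, from which no coordinates were taken. Python 3.11.15, scipy 1.17.1, pandas 2.3.3, numpy 2.4.6 and matplotlib 3.10.9 were used, and edgeR 4.0.16 in R 4.3.3 only for TMM factors. The interval was run on simulated Poisson counts. These held neither PCR duplicates nor variation between birds, so that its coverage in these libraries was not tested. Some markers of the Schwann cell list are not reported here and were left out of it.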

Additional observations from a re-analysis of the deposited data

How the results depend on the processing

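The direction of the log2 fold change of all 10 genes was the same under the 4 other scalings and the 2 pseudocounts. An equal amount added to both FPKM values cannot change a direction. The scalings shift every log2 fold change by -0.09 to 0.02, less than the smallest of the 10, -0.10 for EDNRA. The unchanged directions are therefore no check on the genes. Scaling by TMM or by the median ratio lowered every log2 fold change by 0.09. With 1 added to each FPKM, EDNRB2 had a log2 fold change of 1.37 and exceeded EDNRB by 2.03, 1 of the 10 genes was at least 2-fold higher and 0 were lower, and 96 of all genes were higher and 136 lower. With at least 50 fragments required, 1 of the 10 genes was higher and 0 were lower, beside 207 and 239 of all genes. When the mean FPKM had to reach 1 the numbers were 1 and 0, beside 254 and 256 of all genes. These are counts among the genes that met each limit, and PAX3 and EDN1 met neither. The gene that stayed higher was EDNRB2, with 4 and 67 fragments and FPKM values of 0.124 and 1.90. It met both limits only through test group IV, so that these settings are no check on it. The main numbers were 624 and 530 of all genes. Of the pathway genes outside the 10, 1 was higher and 1 lower. Under TMM or median ratio scaling these numbers were 0 and 2, 0.1 added to each FPKM left 0 higher, and 1 added left 0 in each direction. By fragments in place of FPKM the receptor share of EDNRB2 in test group IV was 14.3%. The upper limit of EDN1 was -0.0679 with a Wilson interval, so that this interval left out 0. That interval, applied to all genes, was added after the data were seen. Depth limits PAX3, EDN1 and the control level of EDNRB2. Leaving out a replicate was not possible.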
